A study of Mus musculus with 20 samples.

Results

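The 10 genes described here belong to the BCL2 family and were chosen by name: Bcl2, Bcl2l1, Bcl2l2, Mcl1, Bak1, Bid, Bcl2l11, Bad, Bmf and Bik, which are 10 of the 50559 genes in the count tables. They leave out Bax, Bbc3 and Pmaip1, the family's classical direct p53 targets, although Bid has been described as p53-responsive in other settings. RNA from mouse liver was sequenced in 20 libraries, 5 from each of 4 groups whose genotype is given as wild-type C57Bl6J. In 3 groups the sample was an individual liver tumor raised by hydrodynamic gene transfer, the rapid tail vein injection of plasmids that are taken up by a part of the hepatocytes. Aldafermin+MYC tumors received transgenes for MYC and Aldafermin, an engineered analog of the gut hormone FGF19. FGF19+MYC tumors received transgenes for MYC and human FGF19, and sgTrp53+MYC tumors received the MYC transgene with a CRISPR/Cas9 guide against Trp53. The MYC transgene, driven by an EF1a promoter, is shared by all 15 tumors. The labels call the 5 livers healthy and non-treated, whereas the study describes its control liver as one that had received an RFP plasmid by the same injection, so whether the livers were injected cannot be told from the sources used here. Female mice were injected at 6 to 8 weeks of age, and the time from injection to harvest of each sample was not given in the sources used here.

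The BCL2 family controls whether the outer mitochondrial membrane is opened during apoptosis. Pro-survival members such as Bcl2, Bcl2l1 (which encodes BCL-XL), Bcl2l2 (BCL-W) and Mcl1 bind and restrain the pore-forming effectors BAK (Bak1) and BAX. BH3-only members, here Bid, Bcl2l11 (BIM), Bad, Bmf and Bik, respond to stress signals by occupying the pro-survival proteins or by activating the effectors, and in hepatocytes BID links death receptors to mitochondria. Much of this control acts on protein stability, cleavage and phosphorylation, which RNA counts do not measure.

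Between 18004977 and 66354724 reads were counted on genes per library. The sgTrp53+MYC libraries were deposited in a table of their own. They had a higher share of ambiguous reads, 11.1% to 14.6% against 3.03% to 6.3% in the other 15 libraries. They also had more reads on genes, 54042455 to 66354724 against at most 44427184. Their share of reads not aligned was lower, 5.34% to 6.82% against 15.3% to 34%. So this tumor type, its table and these read properties cannot be told apart. Trp53 mRNA averaged 46.8 ± 22.6 CPM (SD, n = 5) in sgTrp53+MYC tumors, while Aldafermin+MYC tumors gave 138 ± 32.5, FGF19+MYC tumors 140 ± 17.9 and livers 32.8 ± 2.98. CPM here is the read count relative to the TMM-scaled library size, and edited alleles can still be transcribed, so this level does not measure the edit. The mouse Myc gene itself averaged 3.06 to 4.33 CPM in the tumor groups and 7.45 CPM in livers, and the transgene is not analysed here. In the livers 8 hepatocyte markers summed to 184176 to 227782 CPM. In the tumors the same sum was 4209 to 29676 CPM, with no marker at 0. In bulk samples such as these, fewer cells of a type and less RNA per cell cannot be told apart.

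Promoter sequence is shown for the genes whose RNA was called different from liver, in the same direction, under both ways of scaling the libraries that were compared. These are Bid, higher in all 3 tumor types, Bak1, higher in the 2 FGF-driven types (Aldafermin+MYC and FGF19+MYC), and Bmf and Bcl2l2, lower in all 3. Each line gives the 250 bases before a RefSeq start site, read 5′ to 3′ on the gene's strand, with coordinates from a single exact match to the GRCm39 genome. Capitals mark matches to 5 motifs searched on both strands: the MYC E-box CACGTG, its variant CACGCG, the FOXO core TGTTTAC, the GC box GGGCGG and the CCAAT box.
Bid, chr6:120893786-120894035, minus strand: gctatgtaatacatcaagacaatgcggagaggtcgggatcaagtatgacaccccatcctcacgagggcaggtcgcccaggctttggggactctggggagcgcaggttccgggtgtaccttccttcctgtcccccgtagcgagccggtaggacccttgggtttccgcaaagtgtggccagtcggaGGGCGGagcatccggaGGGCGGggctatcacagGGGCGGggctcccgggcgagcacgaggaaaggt
Bak1, chr17:27247602-27247851, minus strand: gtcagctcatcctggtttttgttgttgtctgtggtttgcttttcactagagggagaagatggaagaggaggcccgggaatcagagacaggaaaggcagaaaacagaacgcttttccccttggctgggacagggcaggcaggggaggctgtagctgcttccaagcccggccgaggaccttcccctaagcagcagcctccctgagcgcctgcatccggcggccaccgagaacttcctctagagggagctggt
Bmf (window 3 of 3), chr2:118380168-118380417, minus strand: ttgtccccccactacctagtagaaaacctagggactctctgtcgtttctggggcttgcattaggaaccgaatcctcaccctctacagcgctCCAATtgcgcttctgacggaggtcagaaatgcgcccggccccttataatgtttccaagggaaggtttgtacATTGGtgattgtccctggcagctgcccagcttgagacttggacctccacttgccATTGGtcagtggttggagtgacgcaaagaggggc
Bcl2l2, chr14:55120632-55120881, plus strand: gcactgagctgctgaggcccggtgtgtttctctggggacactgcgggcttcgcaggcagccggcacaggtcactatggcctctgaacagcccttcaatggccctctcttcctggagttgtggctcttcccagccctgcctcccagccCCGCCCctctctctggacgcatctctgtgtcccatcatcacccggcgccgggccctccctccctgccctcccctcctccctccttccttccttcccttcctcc

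Windows were found for 9 of the 10 genes, 15 windows in all. The canonical E-box CACGTG was in 0 of these 15 windows and in 6.02% of all 32851 windows of this length. CACGCG was in 2 of the 15 windows, of Bcl2l1 and Bcl2l11 (7.62% of all windows), and TGTTTAC in 1, of Bcl2l11 (3.17%). The GC box was in 7 of the 15 windows and is in 32.7% of all windows. These 7 belong to 6 genes (Bcl2, Bcl2l2, Mcl1, Bid, Bcl2l11 and Bad). The CCAAT box, in 33.8% of all windows, was in 5 of the 15, of Bcl2l11, Bad and Bmf. The printed Bmf window holds 3 CCAAT boxes. The Bak1 window holds none of the 5 motifs. The Bid and Bak1 windows lie inside the gene spans given below, which reach to 120894171 and 27247983 and come from another annotation. The Bcl2l2 window lies partly inside its span, which begins at 55120778. For Bid and Bak1 the sequence before those outer ends was not examined. A match describes letters only, and no match says nothing about binding elsewhere.

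All 10 genes passed the filter of at least 1 CPM in at least 5 libraries that left 14333 genes for testing. Their order, set on reads per kilobase of the canonical transcript (RPKM), began with Mcl1 and ended with Bcl2 in all 4 groups. Mcl1 averaged 31.2 to 37.9 RPKM across the groups and Bcl2 0.218 to 0.327 RPKM. The ranks between them differed: Bid was the second most abundant member in each tumor type but the fourth in liver, after Bad and Bcl2l1. In 2 of the 5 Aldafermin+MYC libraries and 1 of the 5 FGF19+MYC libraries Bid exceeded Mcl1, whereas Mcl1 was the highest member in all 5 livers and all 5 sgTrp53+MYC tumors. Several neighbours in the order overlapped between libraries. In Aldafermin+MYC tumors, for example, Bid (30.4 ± 3.33 RPKM) and Mcl1 (32.9 ± 4.96 RPKM) lay within their spread of each other.

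**Figure D1:**
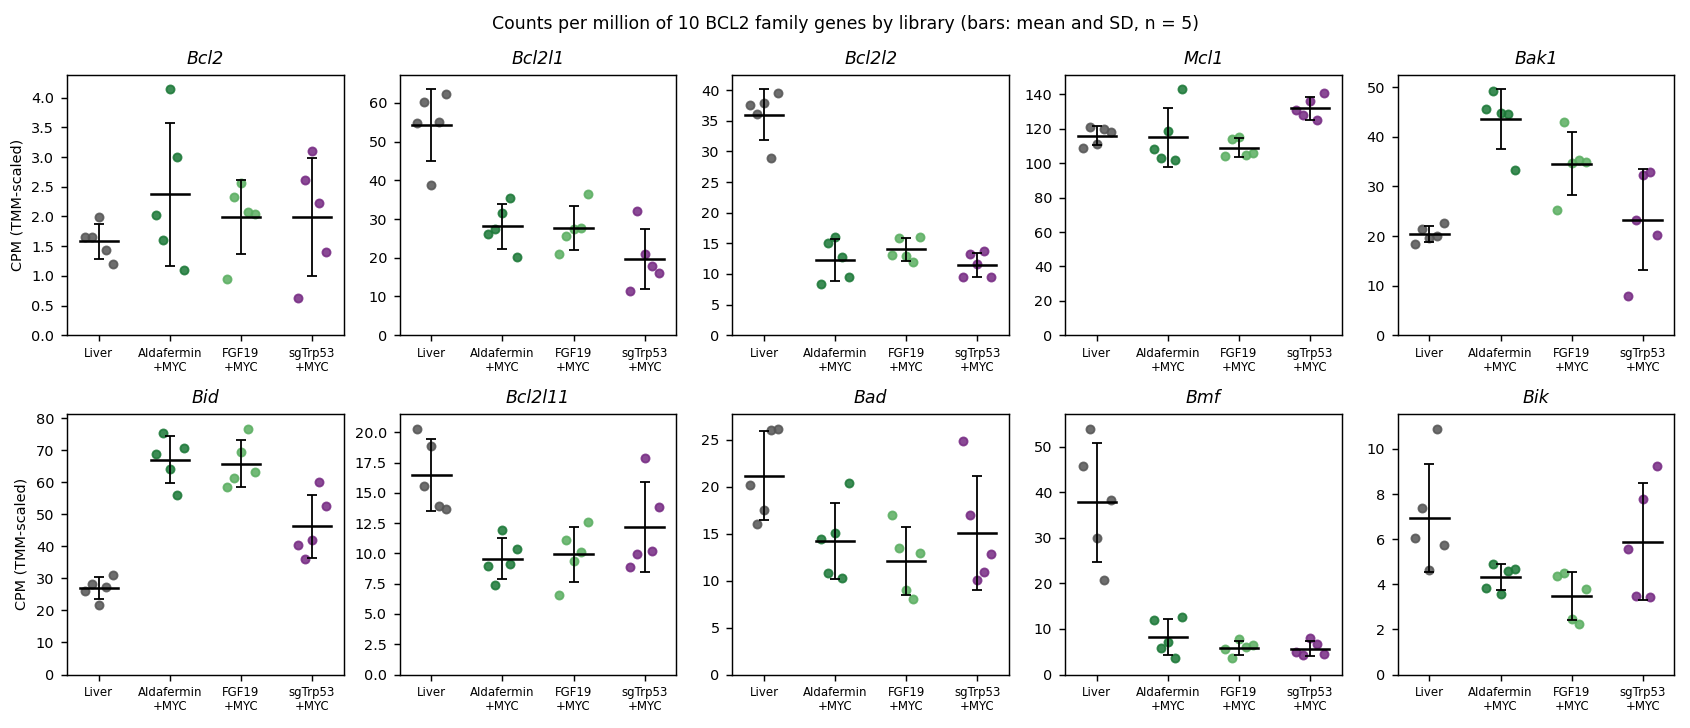
TMM-scaled CPM (vertical axes from 0) of the 10 genes in each of 20 libraries, by group on the horizontal axis, with the mean (line) and SD (whiskers, n = 5). All 15 tumors lay below the 5 livers for Bcl2l1, Bcl2l2 and Bmf and above them for Bid, and Mcl1 stayed between 102 and 143 CPM in every library.

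The first comparison set each tumor type against liver. Relative to livers on the TMM scaling, Bid was higher in all 3 tumor types and Bak1 in both FGF-driven types, while Bcl2l1, Bcl2l2 and Bmf were lower in all 3. Genes were called at a Benjamini-Hochberg adjusted p under 0.05 over all genes tested, in edgeR's quasi-likelihood test. In Aldafermin+MYC tumors 2 members were called higher and 4 lower, where 38.4% of all tested genes were called higher and 31.9% lower. In FGF19+MYC tumors 2 were called higher and 6 lower (36.9% and 32.9% of all genes). In sgTrp53+MYC tumors 1 was called higher and 3 lower (36.9% and 33.0% of all genes). Groups did not overlap for 6, 7 and 5 members in these comparisons, against 58.8%, 62.5% and 56.2% of all genes. The median log2 fold change of the 10 members was -0.63, -0.77 and -0.33, where the medians of all genes tested were 0.13, 0.06 and 0.07.

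**Figure D2:**
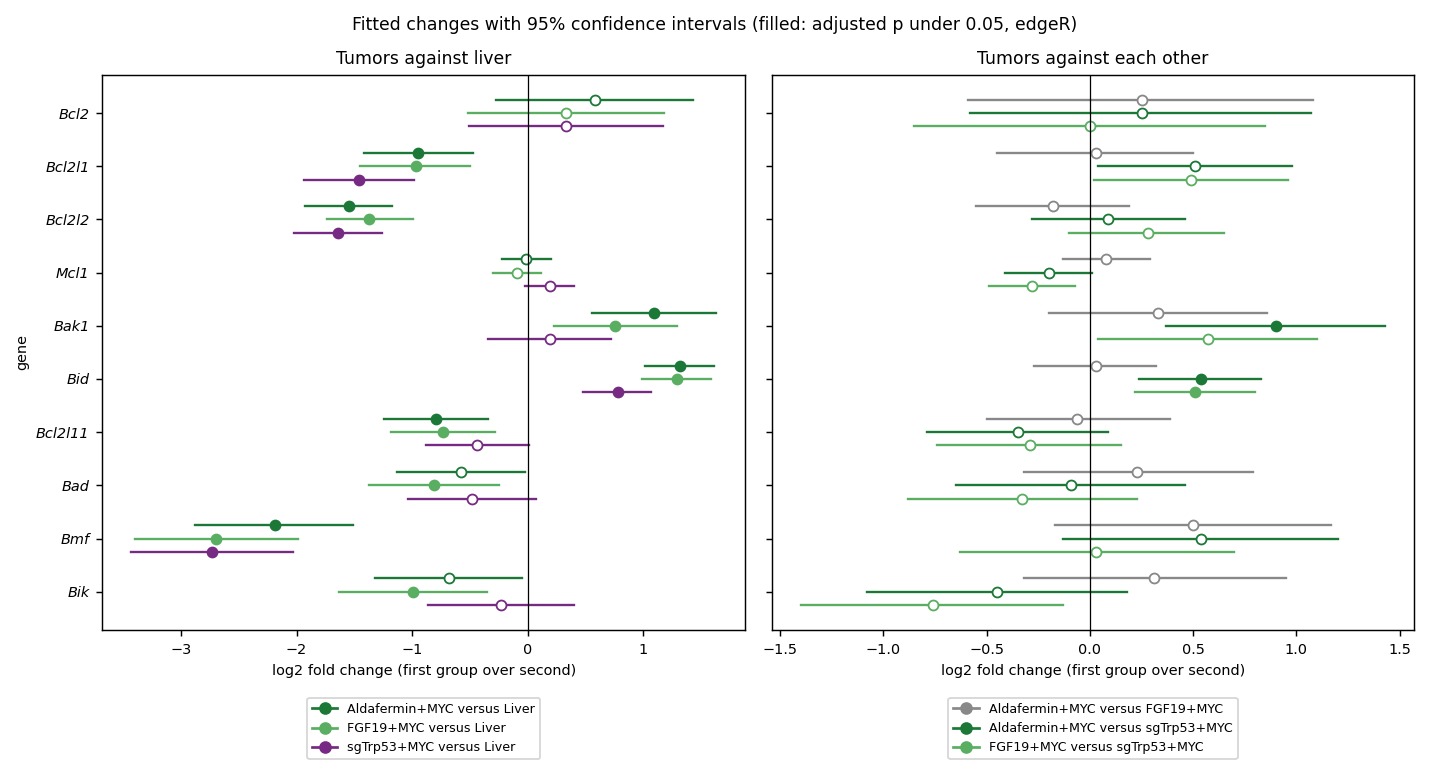
Fitted log2 fold changes (horizontal axes, first group over second) with 95% confidence intervals for each gene (vertical axis), tumors against liver on the left and tumor types against each other on the right. Filled points passed an adjusted p of 0.05 in edgeR, and they lie farthest from 0 for Bmf on the left, at -2.19 to -2.73.

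These comparisons depend on how libraries are scaled, that is, on what is held equal between a tumor and a liver library. Scaling by the plain library total instead of TMM moved the median log2 fold change of all genes to 0.97, 0.91 and 0.95 in the comparisons of Aldafermin+MYC, FGF19+MYC and sgTrp53+MYC tumors with liver. The members moved with it: 4 were called higher and 2 lower in Aldafermin+MYC, 4 and 2 in FGF19+MYC, and 5 and 2 in sgTrp53+MYC tumors, instead of the 2 and 4, 2 and 6, and 1 and 3 called on TMM. Bmf and Bcl2l2 stayed lower and Bid and Bak1 higher than in liver under both scalings in the FGF-driven tumors. Bcl2l1 kept its sign but was not called on library totals, at -0.08, -0.11 and -0.55. Bcl2l11 turned from -0.79 to 0.05 in Aldafermin+MYC tumors and from -0.73 to 0.12 in FGF19+MYC tumors, and neither library-total value was called. Mcl1 turned from -0.01 to 0.83 and from -0.09 to 0.76, and was called higher on library totals, yet in each case lay slightly below the median of all genes. Over all genes the calls went from 5506 higher and 4577 lower to 8618 and 2405 in Aldafermin+MYC tumors, from 5282 and 4709 to 8375 and 2453 in FGF19+MYC tumors, and from 5286 and 4733 to 8534 and 2423 in sgTrp53+MYC tumors. Values against liver that follow use the TMM scaling.

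**Figure D3:**
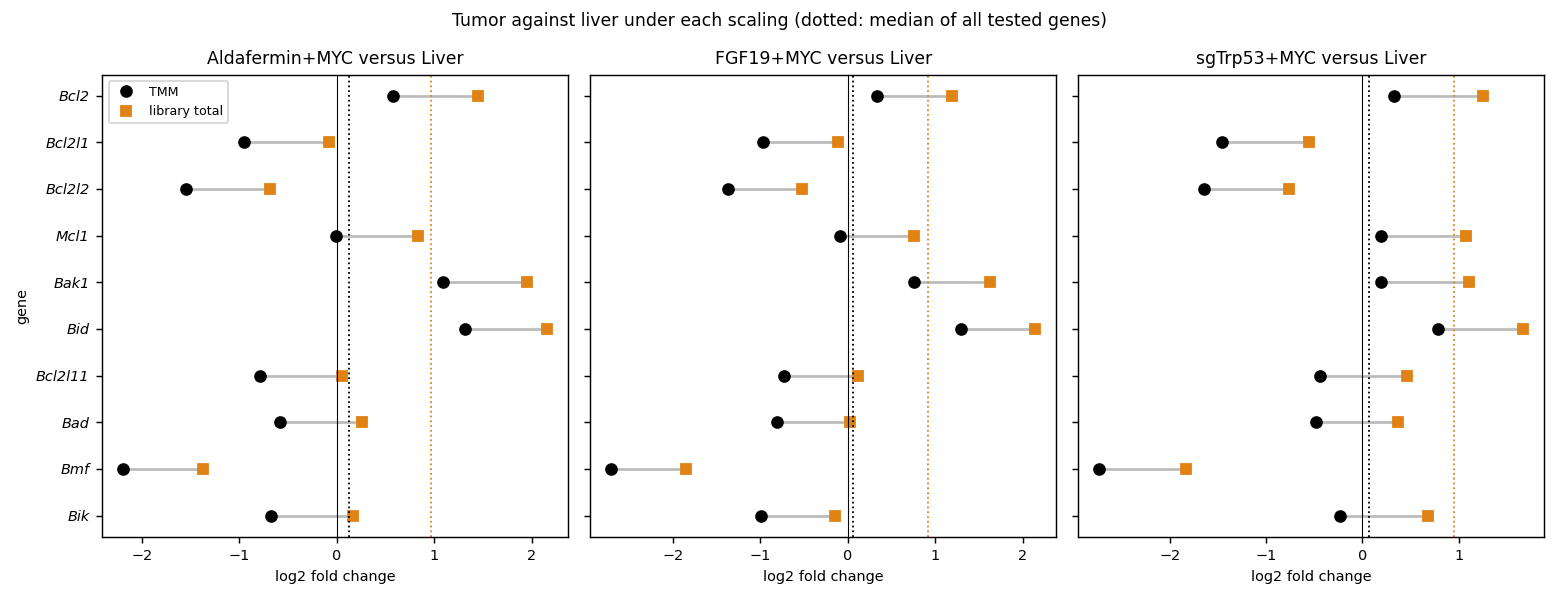
Log2 fold change of each gene (vertical axis) in each tumor type against liver (horizontal axes) under TMM scaling (black circles) and plain library totals (orange squares), with the median of all tested genes dotted in the same colors. Library totals move all genes to the right by a similar amount, so Bmf, Bcl2l2 and Bid keep their direction in all 3 panels while Bcl2l11 and Bad cross 0 in all 3 and Mcl1 and Bik in some.

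Among the pro-survival genes, Mcl1 (GRCm39 chr3:95566026-95570487), whose short-lived protein is needed for hepatocyte survival, had the narrowest range of group means of the 10, 0.28 on the log2 CPM scale. It measured 109, 121, 111, 120 and 118 CPM in the 5 livers and 108, 103, 119, 102 and 143 CPM in the 5 Aldafermin+MYC tumors. The FGF19+MYC tumors gave 104, 114, 115, 105 and 106 CPM, and the sgTrp53+MYC tumors 131, 128, 136, 125 and 141 CPM. Every sgTrp53+MYC tumor was above every liver and every FGF19+MYC tumor, and the other groups overlapped. In the model of all 4 groups none of its log2 fold changes passed the threshold: -0.01 ± 0.10 (SE), -0.09 ± 0.10 and 0.19 ± 0.10 against liver. The 95% interval of the last reached from -0.02 to 0.40. This value for sgTrp53+MYC tumors did pass without a filter on low counts (0.48, edgeR adjusted p = 0.00502), with only the compared groups (0.31, adjusted p = 0.0201) and on library totals (1.08, adjusted p = 3.71e-08). The median of all genes moved too in these settings, from 0.07 to 0.33, 0.19 and 0.95.

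Bcl2l1 (chr2:152622582-152673655), which encodes BCL-XL, the other main guardian of hepatocytes, measured 54.7, 60.3, 38.7, 55 and 62.2 CPM in livers. It was 26.2, 27.3, 31.6, 35.5 and 20.1 CPM in Aldafermin+MYC tumors and 21, 25.5, 27.4, 27.8 and 36.5 CPM in FGF19+MYC tumors. The sgTrp53+MYC tumors gave 11.5, 32.1, 21, 18 and 16 CPM. No tumor reached the lowest liver, and the tumor groups overlapped each other. The log2 fold changes against liver were -0.95 ± 0.23, -0.97 ± 0.23 and -1.46 ± 0.23 (edgeR adjusted p = 0.00107, 8.72e-04 and 1.37e-05).

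Bcl2l2 (chr14:55120778-55126551), which encodes BCL-W, measured 37.6, 36.1, 37.9, 29 and 39.6 CPM in livers. The 15 tumors lay between 8.33 and 16.1 CPM, so the groups were well apart. Its group means were 12.3 ± 3.38 CPM in Aldafermin+MYC, 14 ± 1.86 in FGF19+MYC and 11.5 ± 1.97 in sgTrp53+MYC tumors. The log2 fold changes were -1.55 ± 0.18, -1.37 ± 0.18 and -1.64 ± 0.18 (edgeR adjusted p = 3.36e-07, 1.65e-06 and 1.44e-07).

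Bcl2 (chr1:106465908-106642060), the founding member of the family, was close to the detection filter, at 0.626 to 4.14 CPM in tumors, the lowest of them sgTrp53+MYC replicate 1, and 1.2 to 1.99 CPM in livers. Its fold changes of 0.58, 0.33 and 0.33 (log2) against liver had standard errors of 0.40 to 0.41 and were not called. The interval for Aldafermin+MYC tumors ran from -0.27 to 1.43. On library totals the values were 1.45, 1.19 and 1.25 and were called higher.

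Bak1 (chr17:27238784-27247983), which encodes the effector BAK, measured 18.4, 21.4, 19.7, 20 and 22.7 CPM in livers. Aldafermin+MYC tumors gave 45.7, 49.3, 44.9, 44.7 and 33.4 CPM, and FGF19+MYC tumors 25.2, 42.9, 34.7, 35.4 and 35 CPM. All 10 FGF-driven tumors were above all livers. The sgTrp53+MYC tumors were spread from 8.01 CPM in replicate 1 to 23.2, 32.3, 32.9 and 20.2 CPM in the others, on both sides of liver. The log2 fold changes against liver were 1.09 ± 0.26 (edgeR adjusted p = 8.50e-04), 0.76 ± 0.25 (0.0122) and 0.19 ± 0.25 (0.516). Without sgTrp53+MYC replicate 1 the last became 0.41 and passed the threshold, and on library totals it was 1.11 and also passed.

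Among the BH3-only genes, Bid (chr6:120862525-120894171), whose product is cleaved by caspase-8, measured 26, 28.3, 21.8, 27.2 and 31.1 CPM in livers. It was 68.7, 75.4, 64.1, 56 and 70.6 CPM in Aldafermin+MYC tumors and 58.4, 61.2, 69.5, 76.7 and 63.1 CPM in FGF19+MYC tumors. The sgTrp53+MYC tumors gave 40.5, 36, 41.9, 59.9 and 52.6 CPM. All 15 tumors exceeded all 5 livers. Its log2 fold changes were 1.32 ± 0.14, 1.29 ± 0.14 and 0.78 ± 0.14 (edgeR adjusted p = 1.23e-07, 1.62e-07 and 6.92e-05).

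Bmf (chr2:118359238-118380177), whose product is held at the cytoskeleton through a dynein light chain until detachment or stress, had the widest range of group means of the 10, 2.69 on the log2 CPM scale. Livers measured 45.8, 54, 30, 20.8 and 38.4 CPM. Aldafermin+MYC tumors gave 12, 5.88, 7.04, 3.69 and 12.7 CPM, FGF19+MYC tumors 5.53, 3.53, 7.72, 5.96 and 6.43 CPM, and sgTrp53+MYC tumors 4.93, 4.21, 7.99, 6.77 and 4.56 CPM. The highest tumor was below the lowest liver, and the livers themselves ran from 20.8 to 54 CPM. The log2 fold changes were -2.19 ± 0.33, -2.70 ± 0.34 and -2.73 ± 0.34 (edgeR adjusted p = 8.15e-06, 8.23e-07 and 6.17e-07), which is 4.57, 6.48 and 6.63 times lower than in liver.

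Bcl2l11 (chr2:127967958-128004476), which encodes BIM, averaged 16.5 ± 2.98 CPM in livers, 9.54 ± 1.69 in Aldafermin+MYC, 9.92 ± 2.26 in FGF19+MYC and 12.2 ± 3.71 in sgTrp53+MYC tumors. On the TMM scaling it was called lower in the FGF-driven types, at -0.79 ± 0.21 and -0.73 ± 0.21 (edgeR adjusted p = 0.00293 and 0.00525). In sgTrp53+MYC tumors the value was -0.44 ± 0.21 and was not called (adjusted p = 0.0728). Bad (chr19:6918902-6929280), a BH3-only protein switched off by growth factor kinases, averaged 21.2 ± 4.73 CPM in livers and 12.1 to 15.1 CPM in the tumor groups. Bik (chr15:83411056-83428836), which acts from the endoplasmic reticulum, averaged 6.93 ± 2.4 CPM in livers and 3.48 to 5.89 CPM in the tumor groups. Both were called lower in FGF19+MYC tumors, Bad at -0.81 ± 0.27 (edgeR adjusted p = 0.0117) and Bik at -0.99 ± 0.31 (0.00747). In Aldafermin+MYC tumors they measured -0.58 ± 0.27 and -0.68 ± 0.30 (adjusted p = 0.0614 and 0.0526), just outside the threshold. There Bad passed in 8 and Bik in 7 of 21 alternatives, among them DESeq2 (-0.66 and -0.76), RLE size factors (-0.66 and -0.76), only the compared groups (-0.58 and -0.68) and the correction for GC content and length (-0.80 and -0.98). Bad also passed without Aldafermin+MYC replicate 5 (-0.68) or Liver replicate 2 (-0.66), and Bik without Liver replicate 3 (-0.80). In sgTrp53+MYC tumors Bad measured -0.48 ± 0.27 and passed without replicate 1 (-0.74). Bcl2l11 passed there in 5 of 20 alternatives. These were DESeq2, RLE size factors and the replicate number as a block (each -0.48), the correction for GC content and length (-0.55) and leaving out sgTrp53+MYC replicate 3 (-0.62). Between Aldafermin+MYC and FGF19+MYC tumors the intervals ran from -0.32 to 0.79 for Bad and from -0.32 to 0.95 for Bik. On library totals the FGF19+MYC values were 0.02 for Bad and -0.15 for Bik, and neither was called.

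Markers of other cell types moved in the same comparisons. Summed over 8 macrophage and Kupffer cell markers, livers gave 390 to 598 CPM and tumors 85 to 500 CPM. Of these, 1 was called higher than liver in each tumor type, and 5, 3 and 7 lower in Aldafermin+MYC, FGF19+MYC and sgTrp53+MYC tumors. Cd68 averaged 36.6 to 79.1 CPM in the tumor groups against 16.9 CPM in livers. Clec4f averaged 7.06 to 22.5 CPM against 166 CPM. For 6 endothelial markers the sums were 227 to 340 CPM in livers and 50.2 to 168 CPM in tumors. Sums over 5 proliferation markers were 6.1 to 23.4 CPM in livers and 573 to 1015 CPM in tumors. Cholangiocyte markers (6 genes) summed to 44.7 to 125 CPM in livers and 1.86 to 779 CPM in tumors, and the 7 stellate cell and fibroblast markers to 320 to 462 CPM and 116 to 1575 CPM. These 7 moved in both directions, with 2 called higher and 3 lower than liver in each tumor type. Col1a1 averaged 82.9 to 280 CPM in the tumor groups against 17.3 CPM in livers. Dcn averaged 18.5 to 26.1 CPM against 186 CPM. The 3 erythroid markers gave 127 to 279 CPM in livers and 15.1 to 539 CPM in tumors, and 5 neutrophil markers 0.618 to 2.71 CPM and 1.41 to 23.2 CPM. T and NK cell markers, of which Trac and Trbc2 were at 0 in all groups, summed to at most 8.18 CPM. B cell markers, with Ighm at 0, summed to at most 7.65 CPM. Livers at 0 for these genes still averaged 1.04 CPM of Cd3g and 2.51 CPM of Cd79b. The zeros therefore do not show that such cells were absent, and these sums may be too low. The part of these cells in the members' changes was not tested.

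A second view does not depend on the scaling between libraries, since it takes the members' RPKM as shares of their sum within a library. Pro-survival genes made up 50.4 ± 1.49% of the sum in livers, 39.4 ± 2.55% in Aldafermin+MYC, 41.2 ± 1.23% in FGF19+MYC and 46.8 ± 2.91% in sgTrp53+MYC tumors (SD, n = 5 each). The FGF-driven tumors, at 36.6% to 42.7%, lay below the livers, at 48.6% to 52.3%. The sgTrp53+MYC tumors ran from 43.8% to 51.6% and overlapped the livers. Bak1 made up 7.44 ± 0.561% in livers, 16.2 ± 2.79%, 13.8 ± 2.03% and 9.67 ± 4.09% in the 3 tumor types. The BH3-only share had means from 42.1% to 45% in the 4 groups, with overlapping libraries. Bid took 10.6 ± 0.545% of the sum in livers and 26.8 ± 2.33%, 28.6 ± 3.32% and 20.9 ± 3.94% in the tumor types, while Bmf took 7.04 ± 2.3% in livers and 1.54%, 1.2% and 1.22% in the tumor types. Within the pro-survival genes, Bcl2l1 took 14.3 ± 1.5% in livers and 7.68%, 8.07% and 6.04% in the tumor types. The Mcl1 share was 28.9 ± 1.81% in livers, 28.9 ± 2.86%, 29.9 ± 1.3% and 37.9 ± 1.73% in the tumors. These shares are descriptions without a test.

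**Figure D4:**
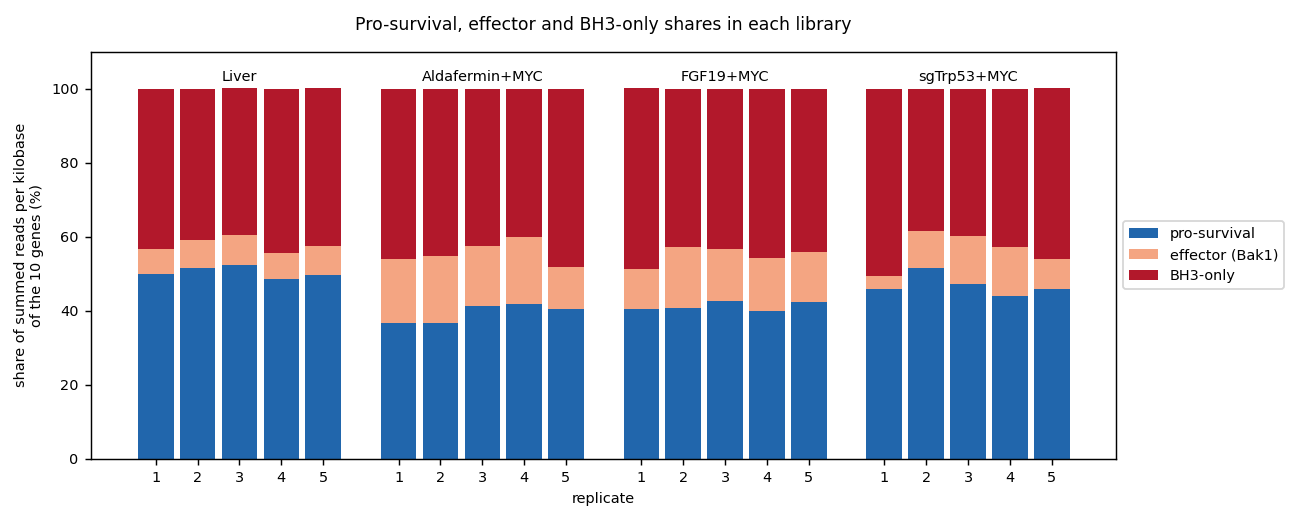
Share of the summed RPKM of the 10 genes (vertical axis, percent) taken by pro-survival genes, the effector Bak1 and BH3-only genes in each library, with replicates on the horizontal axis. The pro-survival share is 48.6% or more in every liver and 42.7% or less in every FGF-driven tumor, and the Bak1 share is lowest in sgTrp53+MYC replicate 1, at 3.54%.

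The ratio of Bid to Mcl1, also taken on RPKM within a library, was 0.367 ± 0.0383 in livers (SD, n = 5). It was 0.936 ± 0.152 in Aldafermin+MYC, 0.959 ± 0.121 in FGF19+MYC and 0.555 ± 0.127 in sgTrp53+MYC tumors. The FGF-driven tumors (0.781 to 1.16), sgTrp53+MYC tumors (0.446 to 0.762) and livers (0.311 to 0.417) did not overlap on this ratio, which was chosen after the values were seen.

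The second comparison asked whether tumors raised with Aldafermin, the engineered analog, differed from those raised with FGF19. For none of the 10 genes was a difference called, in a comparison where 0% of all genes tested were called in edgeR's quasi-likelihood test. At an unadjusted p under 0.05 the count was 0 of 10 members and 1048 of all genes, and DESeq2 also called 0 members. The groups overlapped for all 10 members, where 1.46% of all genes had groups that did not overlap. The fold changes ran from -0.18 for Bcl2l2 to 0.50 for Bmf (log2). The intervals leave room for differences of different size: Mcl1 was bounded between -0.13 and 0.29, Bid between -0.27 and 0.32, and Bmf only between -0.17 and 1.17. For Bak1, with 43.6 ± 5.99 against 34.6 ± 6.28 CPM, the interval ran from -0.20 to 0.86.

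The third comparison set both types against tumors driven by MYC with a Trp53 guide. Bid was higher in both FGF-driven types, at 67 ± 7.33 and 65.8 ± 7.35 CPM against 46.2 ± 9.79 CPM in sgTrp53+MYC tumors. The log2 fold changes were 0.54 ± 0.14 and 0.51 ± 0.14 (edgeR adjusted p = 0.0127 and 0.0186). The groups overlapped, as sgTrp53+MYC replicate 4, at 59.9 CPM, exceeded the lowest library of each. Bak1 was higher in Aldafermin+MYC tumors, with a log2 fold change of 0.90 ± 0.25 (edgeR adjusted p = 0.0191) and without overlap, although the nearest libraries were close, at 33.4 CPM and 32.9 CPM. The corresponding value for FGF19+MYC tumors was 0.57 ± 0.25 and was not called (adjusted p = 0.13). So 2 members were called higher and 0 lower in Aldafermin+MYC tumors, where 10.2% and 7.53% of all genes were called, and 1 higher and 0 lower in FGF19+MYC tumors (7.97% and 7.78%). Groups did not overlap for 1 member in each comparison, against 9.75% and 10.9% of all genes. These are comparisons between the deposited tables as well as between tumor types.

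With only the libraries of the compared groups in the model, neither Bid nor Bak1 was called in either comparison. Their sizes hardly moved, at 0.52 for Bid and 0.89 for Bak1 in Aldafermin+MYC (edgeR adjusted p = 0.0701 and 0.112) and 0.50 for Bid in FGF19+MYC tumors (adjusted p = 0.0639). Without a filter on low counts Bid also lost its call in both comparisons, at 0.43 and 0.40 (edgeR adjusted p = 0.0978 and 0.128). The medians of all genes were -0.10 and -0.13 in that setting. Without FGF19+MYC replicate 4, Bid was no longer called against sgTrp53+MYC tumors, at 0.45 (edgeR adjusted p = 0.0503). Without sgTrp53+MYC replicate 1, Bak1 differed from Aldafermin+MYC tumors by 0.68 and was still called.

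For Mcl1 all 5 FGF19+MYC tumors lay below all 5 sgTrp53+MYC tumors, but the log2 fold change of -0.28 ± 0.10 did not pass the threshold (edgeR adjusted p = 0.0659). It was called with DESeq2 (-0.30) and with both FGF-driven types pooled (-0.24). In Aldafermin+MYC tumors Mcl1 measured -0.20 ± 0.10 and was called with DESeq2 (-0.25) and without Aldafermin+MYC replicate 5 (-0.35). Bcl2l1 measured 0.51 ± 0.23 and 0.49 ± 0.23 against sgTrp53+MYC tumors and was not called (adjusted p = 0.122 and 0.149). Without sgTrp53+MYC replicate 2, its highest library of that group, both values passed, at 0.76 and 0.73. Cholangiocyte markers summed to 779 CPM in that tumor and to 3.5 to 41.3 CPM in the other 4 of its group, and their part in the Bcl2l1 values was not tested. Bik, at -0.76 ± 0.30 in FGF19+MYC tumors, was called only without sgTrp53+MYC replicate 4 (-0.91) and with a correction for GC content and length (-1.21, edgeR adjusted p = 0.0111). That correction also gave calls for Bik in Aldafermin+MYC (from -0.45 to -0.96, adjusted p = 0.036) and Bad in FGF19+MYC tumors (from -0.33 to -0.60, adjusted p = 0.0407). Macrophage and Kupffer cell markers summed to 85 to 170 CPM in sgTrp53+MYC, 152 to 460 CPM in Aldafermin+MYC and 273 to 500 CPM in FGF19+MYC tumors. Hepatocyte markers gave 4209 to 11581, 9637 to 23391 and 10292 to 29676 CPM. Their part in the differences between tumor types was not tested. Bid was no longer called in the comparison with Aldafermin+MYC tumors after the correction for GC content and length (0.49), and Bak1 was not called on library totals (0.84, edgeR adjusted p = 0.0505).

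The genes whose profile over the 20 libraries lay nearest to a member were found for the 4 members with the widest span, by the root mean square difference of centered log2 CPM. For Bmf they were Lamp2, Retsat and Csrnp1 (0.45, 0.46 and 0.48), and for Bcl2l2 they were Ip6k1, Mcoln1 and Pcsk7 (0.19, 0.20 and 0.20). For Bcl2l1 they were Capns1, Lrp10 and Glmp (0.23, 0.24 and 0.24), and for Bid they were Fkbp9, Ptpa and Ppp5c (0.17, 0.18 and 0.18). All points share the split between tumors and livers.

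Of 15 other family genes, 12 were tested, and against liver 8, 7 and 7 were called higher and 4, 3 and 1 lower in Aldafermin+MYC, FGF19+MYC and sgTrp53+MYC tumors. Over all genes tested, 38.4%, 36.9% and 36.9% were called higher and 31.9%, 32.9% and 33.0% lower. Bax, the second classical effector, averaged 119 ± 19.4 and 117 ± 12.9 CPM in the FGF-driven types, 49.7 ± 17.1 in sgTrp53+MYC tumors and 25.7 ± 5.71 in livers. Its log2 fold changes against liver were 2.22, 2.19 and 0.96, and all 3 were called. Bbc3, which encodes PUMA, averaged 26.9, 41.2, 24.6 and 11.7 CPM in the same order, and Pmaip1, which encodes NOXA, 7.02, 7.5, 5.32 and 0.727 CPM. Both were called higher than liver in all tumor types. Pmaip1 was near the filter on low counts in livers, at 0.41 to 1.15 CPM and at most 26 reads. Against sgTrp53+MYC tumors Bax was called higher in both FGF-driven types, at 1.26 and 1.23, while Pmaip1 measured 0.40 and 0.49 and was called in neither. Bbc3 was called only in FGF19+MYC tumors, at 0.74 (edgeR adjusted p = 0.0365), and that call was lost on leaving out any of 7 of the 10 libraries compared, among them FGF19+MYC replicate 3 (0.66).

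Bok, an effector-like member, ran the other way, at 5.91 ± 2.48 CPM in Aldafermin+MYC, 11.2 ± 2.67 in FGF19+MYC, 28 ± 11.9 in sgTrp53+MYC tumors and 11 ± 5.63 in livers. Its log2 fold changes against sgTrp53+MYC tumors were -2.25 ± 0.37 and -1.33 ± 0.36 (edgeR adjusted p = 6.23e-04 and 0.0185). The second missed the threshold without FGF19+MYC replicate 3 (-1.23, edgeR adjusted p = 0.0511) or sgTrp53+MYC replicate 2 (-1.12, adjusted p = 0.0506). Hrk, a BH3-only gene, was rare at 0.184 CPM in livers and 1.45, 1.57 and 3.93 CPM in the tumor types, and was called higher than liver in all 3. The largest liver count of Hrk was 9 reads. As no liver exceeded 0.398 CPM, Hrk passed the filter on low counts only through tumors, and it is among the family genes counted as higher above.

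A wider list of 22 apoptosis genes was tested, among them cytochrome c, caspases and their inhibitors. It is not limited to steps after the mitochondria, as it also holds genes of death receptor signaling such as Casp8. Against liver 8, 9 and 10 were called higher and 10, 10 and 7 lower. Over all genes 36.9% to 38.4% were called higher and 31.9% to 33.0% lower. Birc5 (survivin), which also acts in cell division, averaged 155, 140 and 120 CPM in the tumor types and 1.92 CPM in livers, and Htra2, a released mitochondrial protease, 143, 128 and 110 against 22 CPM. Casp6, an executioner caspase, went the other way, at 8.6, 6.75 and 7.46 CPM against 47.7 CPM. In FGF19+MYC against sgTrp53+MYC tumors the log2 fold change of Birc2, an inhibitor of apoptosis, was -0.59 ± 0.17 (edgeR adjusted p = 0.0246). Birc2 missed the threshold without FGF19+MYC replicate 2 (-0.55, edgeR adjusted p = 0.0647) or 3 (-0.54, 0.0668) or sgTrp53+MYC replicate 1 (-0.42, 0.0597), with only the compared groups (-0.61, 0.0764) and with the correction for GC content and length (-0.37, 0.0692). Against liver, the log2 fold changes of Birc2 were -0.50, -0.64 and -0.04 on the TMM scaling and 0.34, 0.20 and 0.82 on library totals.

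Of 20 genes whose products modify, bind or degrade family members, 9, 8 and 9 were called higher and 6, 5 and 5 lower than liver. The shares over all genes were 36.9% to 38.4% higher and 31.9% to 33.0% lower. Dynll1 and Dynll2 encode dynein light chains. Dynll1 averaged 154, 177 and 163 CPM in the tumor types and 15.7 CPM in livers, while Dynll2, the light chain that binds BMF, averaged 97.5, 92.3 and 83.9 CPM against 222 CPM. Vdac2, which holds BAK at the mitochondrion, averaged 307, 283 and 270 CPM against 118 CPM. Foxo1, a transcription factor of the family known to act on Bcl2l11, averaged 28.3, 29.8 and 44.6 CPM against 71.8 CPM. Each of these 4 was called in all 3 comparisons with liver on the TMM scaling, while on library totals Foxo1 was called in none and reached 0.23 in sgTrp53+MYC tumors, and Dynll2 was not called in Aldafermin+MYC tumors (-0.33). Between Aldafermin+MYC and sgTrp53+MYC tumors, 2 other family genes were called higher and 1 lower. Of the 22 apoptosis genes 1 was called higher and 3 lower, and of these 20 genes 0 higher and 1 lower. Over all genes the shares were 10.2% and 7.53%. Between FGF19+MYC and sgTrp53+MYC tumors the counts were 2 and 1, 0 and 3, and 0 and 0, beside 7.97% and 7.78% of all genes. Reads that Dynll1 or Vdac2 may share with processed copies were not resolved here.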

How the data were processed

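RNA from individual tumors and from livers was made into stranded mRNA libraries and sequenced as paired reads of 150 bases. The deposited values are raw counts per gene symbol, which the authors made with HISAT2 (genome mm39) and htseq-count on the RefSeq annotation, without normalization. Base calling used bcl2fastq 2.20.0.422 according to the submitters' processing notes. The strand setting of the counting was not given in the sources used here. The 5 summary lines of the counter, which name no gene, were left out: 1.32% to 2.56% of reads met no feature, 3.03% to 14.6% were ambiguous, 5.34% to 34% were not aligned, 5.4% to 9.78% aligned to several places and 5.88% to 14.3% had low alignment quality.

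Tests used edgeR 4.0.16 under R 4.3.3. A gene was tested if 5 or more libraries reached 1 CPM. Libraries were TMM-scaled, and all 4 groups entered 1 quasi-likelihood model, with Benjamini-Hochberg adjustment over 14333 genes in each of 6 comparisons. All tests were two-sided. Errors of fold changes are standard errors and those of levels are SDs. RPKM used the length of the Ensembl canonical transcript. Exons of this transcript of the 10 genes overlapped those of 0 other counted genes, each also taken from its canonical transcript. Other exons, and counted genes without a matching symbol, were not checked, so reads lost to overlap under the RefSeq annotation cannot be told. Libraries of a group differed by more than sampling noise (chi-square over its degrees of freedom of at least 15.5). The test was also run on simulated counts for sgTrp53+MYC against FGF19+MYC tumors in which few genes changed, with an outcome not given here. That run does not cover the comparisons with liver, where most genes were called. Promoters are from RefSeq.

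The members, gene lists and tests were chosen with earlier results of these data known. Named genes are the 10 members, Bax, Bbc3, Pmaip1 and Bok, and from each other list the 2 called genes with the largest absolute log2 fold change in each comparison with liver and in FGF19+MYC against sgTrp53+MYC tumors. The result of 1 gene that this rule names is not reported here. Genes nearest in profile are the first 3 for each of the 4 members with the widest span of group means. According to the study, the tumors sequenced were taken from different mice and replicates were biological, which for the livers is not spelled out further in the sources used here. Alternatives were DESeq2 1.42.0, edgeR's likelihood ratio test, other size factors and filters, only the compared groups, the replicate number as a block, a correction for GC content and length, thinned counts, pooled FGF-driven tumors, and each library left out. Plain library totals in the test were added after the data were seen.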

Additional observations from a re-analysis of the deposited data

Results flagged for a closer look

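Of 40 sets of 1 gene in 1 group tested for a sample far from the others (Dixon's test, critical value 0.71 for groups of 5), 1 was flagged, where chance flags about 1 in 20. Bak1 in Aldafermin+MYC replicate 5, at 33.4 CPM, lay below the other libraries of its group, at 44.7 to 49.3 CPM. The same tumor had the highest Mcl1 (143 CPM) and Bad (20.4 CPM) and the lowest Bcl2l1 (20.1 CPM) of its group. FGF19+MYC replicate 1 and sgTrp53+MYC replicate 1 also had the lowest Bak1 (25.2 and 8.01 CPM) and Bcl2l1 (21 and 11.5 CPM) of their groups. They had the highest Bad too (17 and 24.9 CPM), but not the highest Mcl1. In each tumor type the library named here had the lowest TMM factor (1.04, 0.997 and 1.04). Aldafermin+MYC replicate 5 also stood apart in markers of other cell types. Its sums were 23.2 CPM for neutrophils (1.41 to 1.92 CPM in the other 4) and 539 CPM for erythroid cells (27.9 to 113 CPM). For endothelial cells its sum was 55 CPM (83.6 to 168 CPM). FGF19+MYC replicate 1 and sgTrp53+MYC replicate 1 likewise had the lowest endothelial sums of their groups (70.9 and 50.2 CPM). Their erythroid sums were the highest (107 and 87.8 CPM). The neutrophil sum was its group's highest only in FGF19+MYC replicate 1 (15.5 CPM). The part of these cells in the members' values was not tested. Without Aldafermin+MYC replicate 5, the log2 fold change of Bak1 against sgTrp53+MYC tumors was 0.93.

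The change against liver differed between tumor types for Bak1 and Bid, by the tests between tumor types, in which the livers cancel. The log2 fold change of Bak1 was larger by 0.90 in Aldafermin+MYC than in sgTrp53+MYC tumors. That of Bid was larger by 0.54 in Aldafermin+MYC and by 0.51 in FGF19+MYC tumors than in sgTrp53+MYC tumors.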

How the results depend on the processing

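Over 60 fold changes of the members and 1234 values under the alternatives, 1174 stayed on their side of the threshold, 13 lost a call, 41 gained 1 and 6 called under either setting changed sign, all 6 on plain library totals. Of the 1174, 54 that were called under neither setting also changed sign, 5 on library totals and 49 under other alternatives. The 6 were Mcl1 (0.83) and Bcl2l11 (0.05) in Aldafermin+MYC, Mcl1 (0.76), Bcl2l11 (0.12) and Bad (0.02) in FGF19+MYC and Bik (0.68) in sgTrp53+MYC tumors against liver. Of the other named genes, Birc2 (0.34, 0.20 and 0.82 in the 3 tumor types) and Foxo1 (0.23 in sgTrp53+MYC tumors) reversed there too. Library totals called 7 members rather than 4 in sgTrp53+MYC against liver and 1 rather than 2 in Aldafermin+MYC against sgTrp53+MYC tumors. In the latter, no filter on low counts gave 1 and only the compared groups 0. In FGF19+MYC against sgTrp53+MYC tumors, with 1 member called, DESeq2 gave 2, no filter 0, only the compared groups 0, pooled FGF-driven tumors 3 and the correction for GC content and length 3. Leaving out each library gave 0 to 0, 2 to 3 and 0 to 2 members in the tumor comparisons and 6 to 7, 8 to 8 and 4 to 6 against liver. Apart from the scaling, the cause of these changes was not tested.

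Over all genes, Aldafermin+MYC against FGF19+MYC gave 0 calls, against 96 with DESeq2, 59 with the likelihood ratio test, 2 with RLE size factors, 8 with thinned counts and 0 to 29 on leaving out a library. With only the compared groups, the calls in Aldafermin+MYC against sgTrp53+MYC tumors were 635 higher and 440 lower rather than 1455 and 1079, and in FGF19+MYC tumors 682 and 754 rather than 1143 and 1115. Pooling gave 1663 higher and 1736 lower.

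Replicate numbers did not pair the samples: correlations of same-numbered samples ran from -0.33 to 0.33. With the replicate number as a block, the members called were 0, 2 and 1 between tumor types and 7, 8 and 5 against liver, where Bad was added in Aldafermin+MYC and Bcl2l11 in sgTrp53+MYC tumors.

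Mean CPM on library totals in place of TMM lay outside 1 SD for 10 of 10 members in livers and for 8 of 30 values in tumors.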
